A study of Homo sapiens with 6 samples.

Results

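FOXO1, FOXO3 and FOXO6 encode forkhead transcription factors of the FOXO class, and the accessible regions at and around these 3 genes were compared between senescent and non-senescent human beta-like cells. Regions were chosen by their position alone. A promoter region overlapped the 2 kb on either side of a transcription start site (TSS) that GENCODE gives for protein-coding transcripts of 1 of the genes, and a distal region was any other region whose midpoint had such a TSS as its nearest protein-coding TSS, within 100 kb. This gave 31 of the 108542 regions of the authors' deposited table, of which 12 belonged to FOXO1, 6 to FOXO3 and 13 to FOXO6. By class, 7 were promoter regions and 24 were distal.

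Accessibility was measured by ATAC-seq, in which the Tn5 transposase cuts and tags open DNA, in EndoC-βH3 cells. This is a single human beta cell line made from a fetal pancreas, immortalised with hTERT and the SV40 large T antigen and carrying a tamoxifen-inducible CreER that excises both transgenes. The non-senescent group was labelled as control (3 libraries), and the senescent group as senescence induction (3 libraries), for which cells received 4-hydroxytamoxifen over 3 weeks. The genotype label was WT in both groups, and both were grown in the same low-glucose medium. Each library came from 100000 cells. Nothing in the labels says whether the libraries came from separate cultures, so p-values measure the spread between libraries, which may be technical. The drug, the loss of the transgenes and the senescent state that follows came together and cannot be told apart.

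The deposited table gives each region its mean signal (the normalised read count averaged over all 6 libraries), a log2 fold change between the groups with its standard error (SE) and an adjusted p-value from DESeq2, but no value for a single library. Depth per library and the overlap of libraries therefore cannot be read from it. Which group stands in the numerator is not named there, and it was taken to be the senescent one. PLK1, a mitotic kinase, had a promoter log2 fold change of -1.13 (SE 0.11) on this reading. To show levels, an average normalised read count was worked out for each group from mean signal and fold change, assuming equal weights for all libraries, and carries the error of that fold change. The beta cell label was checked at the promoters of 14 beta cell genes, which all held a region, with mean signals of 183 to 7894 and a median of 1442. Markers of other cell types held promoter regions too, in 3 of 3 alpha cell genes (53.4 to 1340), 2 of 2 delta cell genes (195 to 478), 3 of 4 acinar genes (43.2 to 2101), 2 of 3 duct genes (131 to 1059), 2 of 3 fibroblast genes (17.6 to 142), 1 of 3 immune genes (644) and 1 of 2 endothelial genes (117), so that an open promoter alone does not separate the cell types. PRSS1, CFTR, DCN, PTPRC, CD3E and CDH5 had none. A region was called higher or lower when its adjusted p-value was under 0.05 and its level changed by over 1.5-fold, which is 0.58 on the log2 scale.

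FOXO factors bind DNA through a forkhead domain and sit at the end of the insulin pathway. When insulin or growth factors activate PI3K and AKT, FOXO proteins are phosphorylated, held by 14-3-3 proteins and kept out of the nucleus, and under stress or low insulin they return and switch on genes for cell cycle arrest, antioxidant defence, autophagy and glucose output. FOXO1 is the best known of them in beta cells, where it restrains PDX1 and helps to preserve beta cell identity under metabolic stress. FOXO3 is widely expressed and known for stress resistance and longevity, and FOXO6 is known mainly from the brain and liver. Much of their control acts on the protein, which ATAC-seq does not measure.

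The sequences of 6 of the 12 called distal regions are shown, as examples of the regions that rose or fell at each gene, each as 300 bases around the middle of the region in hg38. The capitals mark the only match in a window to the motifs searched, an AP-1 element or a homeodomain element at FOXO6, and a window in lower case had no match.
FOXO1 distal region +86.9 kb, chr13:40579629-40579928, + strand: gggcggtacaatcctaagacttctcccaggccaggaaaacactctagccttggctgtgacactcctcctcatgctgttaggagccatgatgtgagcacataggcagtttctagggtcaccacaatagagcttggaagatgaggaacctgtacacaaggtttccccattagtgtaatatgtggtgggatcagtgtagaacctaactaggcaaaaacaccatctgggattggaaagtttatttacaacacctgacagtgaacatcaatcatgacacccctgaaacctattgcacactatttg
FOXO3 distal region -83.2 kb, chr6:108476456-108476755, + strand: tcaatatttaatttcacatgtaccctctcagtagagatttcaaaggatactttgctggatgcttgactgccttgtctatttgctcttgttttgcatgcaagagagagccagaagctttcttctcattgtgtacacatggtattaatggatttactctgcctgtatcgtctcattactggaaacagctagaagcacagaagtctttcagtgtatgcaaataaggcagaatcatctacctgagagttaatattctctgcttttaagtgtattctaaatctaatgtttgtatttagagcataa
FOXO6 distal region -41.3 kb, chr1:41320519-41320818, + strand: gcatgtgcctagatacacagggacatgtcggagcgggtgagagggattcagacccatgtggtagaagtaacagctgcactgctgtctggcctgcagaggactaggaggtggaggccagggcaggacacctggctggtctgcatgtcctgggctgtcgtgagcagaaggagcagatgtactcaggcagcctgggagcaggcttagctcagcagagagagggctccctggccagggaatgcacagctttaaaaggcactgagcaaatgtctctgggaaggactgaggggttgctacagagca
FOXO6 distal region -19.6 kb, chr1:41342149-41342448, + strand: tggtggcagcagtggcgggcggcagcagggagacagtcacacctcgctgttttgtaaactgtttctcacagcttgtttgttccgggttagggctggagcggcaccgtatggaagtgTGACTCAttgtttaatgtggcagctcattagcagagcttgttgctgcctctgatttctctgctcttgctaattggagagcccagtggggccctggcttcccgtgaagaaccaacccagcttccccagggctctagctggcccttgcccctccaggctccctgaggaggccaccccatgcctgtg
FOXO6 distal region +5.5 kb, chr1:41372026-41372325, + strand: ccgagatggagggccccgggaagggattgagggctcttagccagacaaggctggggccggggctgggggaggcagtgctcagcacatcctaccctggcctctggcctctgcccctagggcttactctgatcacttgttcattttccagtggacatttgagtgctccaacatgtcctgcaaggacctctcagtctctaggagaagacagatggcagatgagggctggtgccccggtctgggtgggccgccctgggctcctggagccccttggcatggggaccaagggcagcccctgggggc
FOXO6 distal region +21.0 kb, chr1:41387574-41387873, + strand: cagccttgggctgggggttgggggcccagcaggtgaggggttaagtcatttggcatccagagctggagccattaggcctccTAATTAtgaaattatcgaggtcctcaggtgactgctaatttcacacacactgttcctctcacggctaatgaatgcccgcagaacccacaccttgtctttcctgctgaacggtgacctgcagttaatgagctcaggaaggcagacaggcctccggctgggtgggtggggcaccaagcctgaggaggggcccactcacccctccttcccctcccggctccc

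The RefSeq promoter of FOXO6 (GRCh38.p14) is shown as the promoter type that all 3 genes share at their main start sites. Its 250 bases ahead of the RefSeq start site held 34 CpG dinucleotides at a GC content of 81.6%, and it held none of the motifs.
FOXO6 RefSeq promoter, chr1:41361184-41361433, + strand: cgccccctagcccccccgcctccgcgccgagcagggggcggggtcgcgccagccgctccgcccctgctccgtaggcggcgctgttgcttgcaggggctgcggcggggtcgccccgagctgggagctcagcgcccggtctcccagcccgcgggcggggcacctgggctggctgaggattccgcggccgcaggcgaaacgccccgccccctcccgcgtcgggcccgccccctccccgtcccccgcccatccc

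At the promoters, accessibility differed little between senescent and non-senescent cells. None of the 7 promoter regions was called, where 3.56% of all 20094 promoter regions of the table were called higher and 9.04% lower. The log2 fold change was positive in 6 of the 7 with a median of 0.27, against a median of -0.13 over all promoter regions. The 1 negative value, at FOXO3 (-0.07, SE 0.09), became 0.058 or 0.071 once the drift of fold changes with signal strength or GC content was removed. Removing the drift with signal gave 0.23 at the main FOXO3 promoter region (adjusted p = 0.00071, Wald test). It gave 0.24 at the FOXO1 region 1.8 kb into the gene (adjusted p = 0.0024, Wald test). Both stayed under the fold limit. At the FOXO3 region inside the gene it lowered 0.45 to 0.39 (adjusted p = 0.12, Wald test), and removing the GC drift gave 0.17. At the FOXO1 region 0.8 kb ahead of the TSS, removing the drift with signal lowered 0.36 to 0.21. That correction also moved the median over all promoter regions from -0.13 to -0.04. For 5 of the 7, the 95% interval of the fold change lay wholly within 1.5-fold in either direction.

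FOXO1 lies on the minus strand of chromosome 13 (40555667 to 40666641 in hg38) with 1 protein-coding TSS, and had 3 promoter regions. The one over the TSS and the first, partly untranslated exon (40666087 to 40667038) went from an estimated 443 normalised reads per non-senescent library to 542 per senescent library. Its log2 fold change of 0.29 (SE 0.09) passed the adjusted p-value of the authors' DESeq2 table (0.0068) but stayed under the fold limit. The strongest FOXO1 region, 1.8 kb into the gene at 40663929 to 40665702, had estimated levels of 906 and 991 and a difference of 0.13 on the log2 scale (SE 0.07, adjusted p = 0.13 in the DESeq2 table). A weak region 0.8 kb ahead of the TSS, at a mean signal of 43.6, differed by 0.36 (log2, SE 0.28, adjusted p = 0.32). The FOXO1 promoter was open in both groups, and its upper 95% limit at the TSS was 0.48 on the log2 scale.

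FOXO3 lies on the plus strand of chromosome 6 (108559835 to 108684774) and has 3 protein-coding start sites. Its main promoter region (108559064 to 108561816) was the strongest of all 31 regions, with estimated levels of 1875 and 2031 normalised reads in non-senescent and senescent libraries and a difference of 0.12 on the log2 scale (SE 0.06, adjusted p = 0.11 in the DESeq2 table). The region just upstream, at a mean signal of 623, had a value of -0.07 (log2, SE 0.09, adjusted p = 0.51). The third lay inside the gene, 0.7 kb after an internal start site (108656817 to 108657209), and went from an estimated 74.4 to 102 a log2 ratio of 0.45 (SE 0.20, adjusted p = 0.058), which did not pass the test. The stretch between the main promoter region and this internal one, 108561816 to 108656816, held no region at all, so that only 2 regions had their midpoints in the body of FOXO3, against 11 in FOXO1.

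FOXO6 lies on the plus strand of chromosome 1 (41361922 to 41383590) and had 1 promoter region (41360869 to 41362272). Estimated levels were 1101 in non-senescent and 1326 in senescent libraries. The log2 fold change of 0.27 (95% interval 0.14 to 0.39) passed the adjusted p-value (0.00017 in the DESeq2 table) and not the fold limit, and lay at the 89.0 percentile of all promoter regions.

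**Figure D1:**
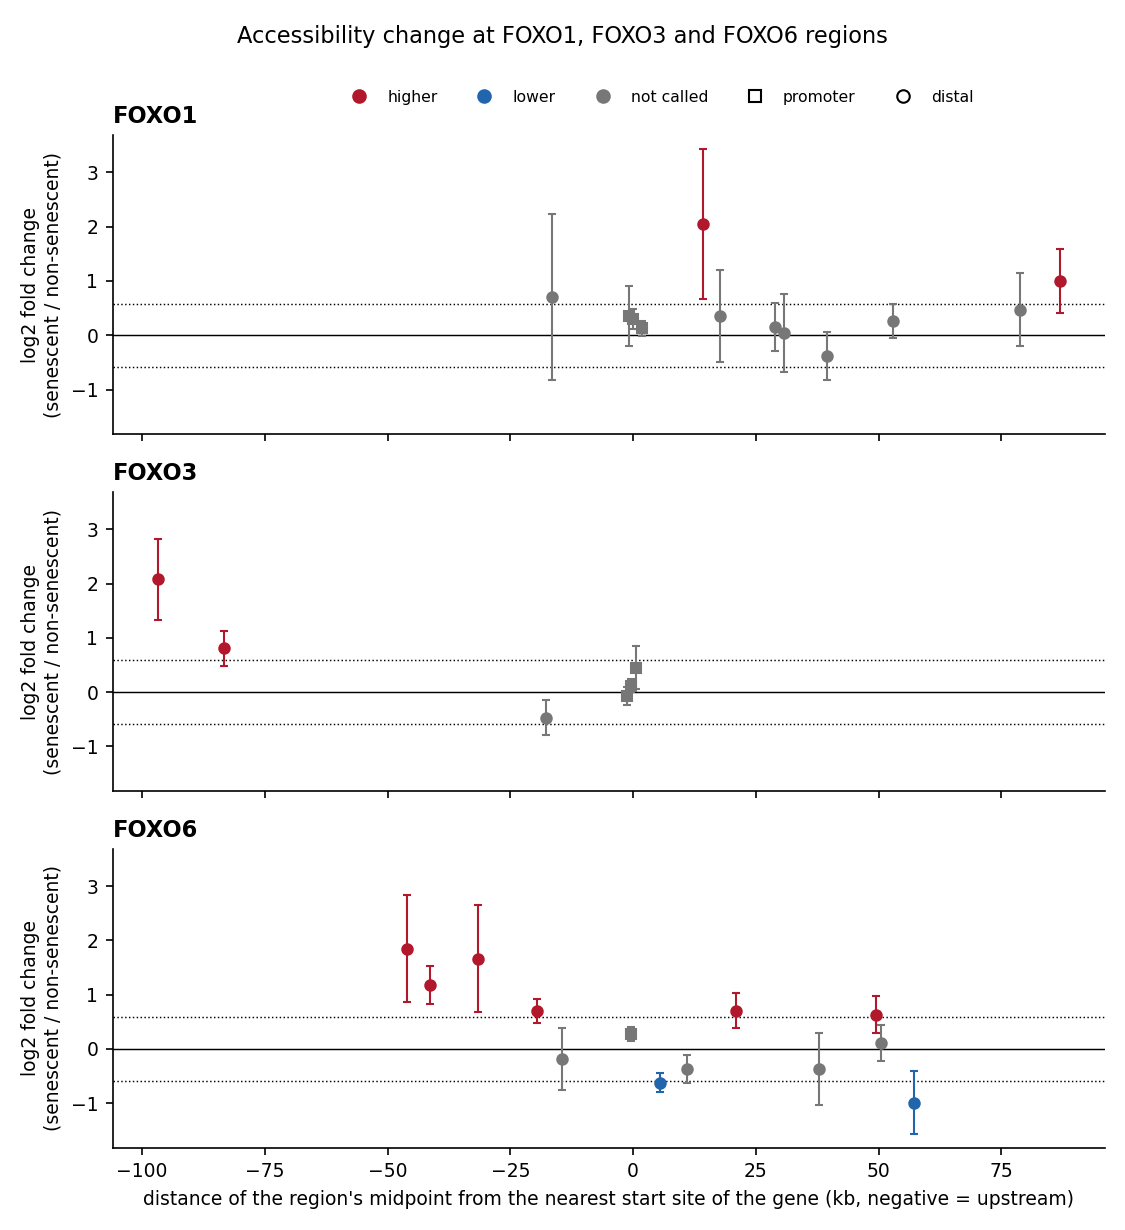
Log2 fold change (senescent over non-senescent, y axis) of each region against the distance of its midpoint from the nearest protein-coding start site of FOXO1, FOXO3 or FOXO6 (kb, x axis). Bars are 95% intervals from the SE, squares are promoter and circles distal regions, colours give the call and dotted lines the 1.5-fold limit, and the FOXO3 square at 0.7 kb belongs to the internal start site. The 7 squares lie inside the limit, and called regions lie on both sides of FOXO6, upstream of FOXO3 and inside FOXO1.

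The distal regions were called more often. Of the 24, 10 (41.7%) were called higher in senescent cells and 2 (8.33%) lower, where 18.1% of all 88448 distal regions, at any distance from a gene, were called higher and 10.6% lower. Their median log2 fold change was 0.41, against 0.08 over all distal regions. No test was made of this difference, and regions of 1 gene share its locus and are not independent of each other. The higher regions were unevenly spread, with 6 of 12 at FOXO6, 2 of 3 at FOXO3 and 2 of 9 (22.2%) at FOXO1. The share at FOXO1 was near the 18.1% of all distal regions, and FOXO3 had only 3 distal regions. Both lower regions lay at FOXO6.

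Weak regions of the table tended to have positive fold changes, with a median of 0.23 (log2) for distal regions under a mean signal of 100 and of -0.06 from 100 up, so the distal regions were also read by signal. Below a mean signal of 100, 5 of 14 FOXO regions (35.7%) were higher and 1 lower, against a background of 22.3% higher and 8.29% lower among distal regions of that signal. At 100 or above, 5 of 10 (50.0%) were higher and 1 lower, against 12.4% and 13.7%. The share of higher regions lay above the background in both ranges, on 5 regions in each, and the difference was not tested. Of the higher ones at 100 or above, all but the FOXO3 region 83.2 kb upstream lay at FOXO6.

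**Figure D2:**
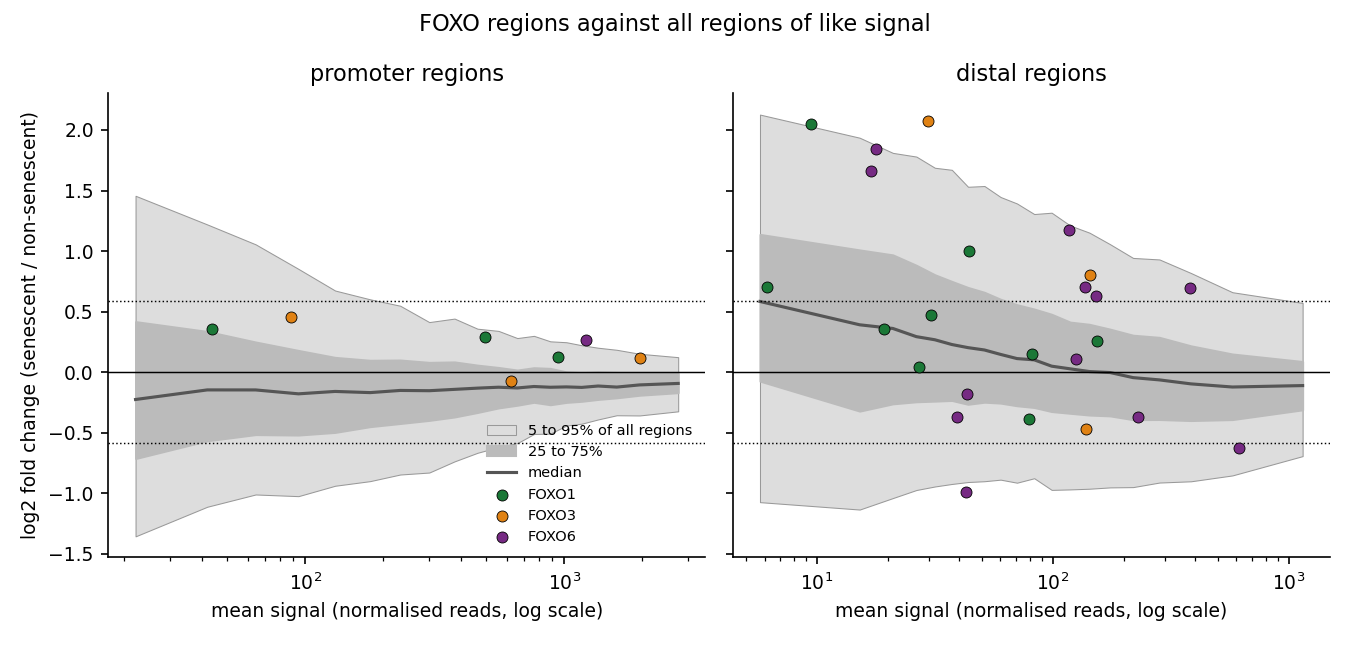
Log2 fold change (y axis) against mean signal (normalised reads, log scale, x axis) of the FOXO regions, coloured by gene, over the spread of all promoter regions (left) and all distal regions (right), with 20 bins of signal in each. The bands hold 5 to 95% and 25 to 75% of all regions, and the distal median goes from above 0 at low signal to below 0 at high signal. Each of FOXO1, FOXO3 and FOXO6 has a distal point at or near the upper edge.

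FOXO6 had the largest number of called distal regions, 8 of its 12, and FOXO3 had 2 of 3 called. Upstream of the gene, 4 of 5 distal regions were higher and none lower, while of the 7 downstream ones 2 were higher and 2 lower. The region 41.3 kb upstream (41320416 to 41320921) went from an estimated 71.9 normalised reads in non-senescent to 162 in senescent libraries, a log2 fold change of 1.17 (95% interval 0.82 to 1.53, adjusted p = 1.3e-09 in the DESeq2 table). It was 1 of only 2 FOXO regions that also passed a stricter Wald test, of whether the change itself exceeded 1.5-fold. The region 19.6 kb upstream (41341914 to 41342684), whose window above carries an AP-1 element, was the strongest of those that rose, from an estimated 291 to 473, and its log2 ratio was 0.70 (SE 0.11, adjusted p = 3.2e-09).

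The other 2 upstream regions that rose were weak. At 46.1 kb upstream the estimated level went from 7.73 to 27.8 (log2 fold change 1.85, SE 0.50, adjusted p = 0.0011 in the DESeq2 table), and at 31.5 kb from 8.19 to 25.9 (1.66, SE 0.50, adjusted p = 0.0036). Together with the region at 41.3 kb they fell within the noncoding gene ENSG00000287400, while the regions 19.6 and 14.5 kb upstream lay outside any annotated gene. The region at 14.5 kb had a log2 fold change of -0.18 (SE 0.29) and was not called.

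Inside FOXO6 the pattern was the opposite. The strongest distal region of all 3 genes lay in an intron 5.5 kb after the nearest start site (41371788 to 41372564), and fell from an estimated 747 normalised reads in non-senescent to 485 in senescent libraries. Its log2 fold change was -0.62 (95% interval -0.80 to -0.45, adjusted p = 4.0e-11 in the DESeq2 table), close to the fold limit, and it was no longer past that limit after correction for the drift of fold changes with signal (-0.49) or with GC content (-0.47). The second intronic region, 10.9 kb after the start site, had estimated levels of 258 and 199.9 and a log2 ratio of -0.37 (SE 0.13, adjusted p = 0.013), under the fold limit. The called region within the gene and those upstream of it thus moved in different directions.

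Beyond the end of FOXO6 the changes were mixed. The regions 21.0 kb (41387407 to 41388040, with a homeodomain element in its window) and 49.5 kb (41415857 to 41416498) from the nearest start site rose. The first went from an estimated 104 to 170.0 (log2 fold change 0.70, SE 0.16, adjusted p = 8.6e-05 in the DESeq2 table) and the second from 119 to 185 (0.63, SE 0.17, adjusted p = 0.0011). A region only about 1 kb past the second, at 50.5 kb, with an AP-1 element, had a log2 fold change of 0.11 (SE 0.17) and was not called. The farthest, at 57.1 kb (41423514 to 41424058), fell from an estimated 57.3 to 28.9, or by 0.99 on the log2 scale (SE 0.30, adjusted p = 0.0034), the largest fall among the 31 regions. The next protein-coding start sites belong to SCMH1, 119.6 kb away on one side, and EDN2, 118.0 kb away on the other.

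All 3 distal regions of FOXO3 lay upstream. The largest rise of the 31 regions was 96.7 kb upstream of the TSS, near the distance limit. The estimated level there went from 11.4 to 47.9 normalised reads, a log2 fold change of 2.08 (95% interval 1.34 to 2.81, adjusted p = 3.8e-07 in the DESeq2 table), which is 4.21-fold, and it was the other region that passed the stricter Wald test. The region 83.2 kb upstream (108476339 to 108476872) rose from an estimated 105 to 184 (0.80, SE 0.17, adjusted p = 1.4e-05). The midpoints of both lie in an intron of AFG1L, a mitochondrial ATPase gene whose own TSS is 264 kb from that of FOXO3. Both also fall in the noncoding gene ENSG00000287044, so that proximity alone assigns them to FOXO3. The second region also overlaps an annotated exon of AFG1L or of that noncoding gene.

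The third FOXO3 region, 17.7 kb upstream (108541811 to 108542430), had levels of 161 in non-senescent and 116 in senescent libraries. Its log2 fold change of -0.47 (SE 0.17, adjusted p = 0.013 in the DESeq2 table) was under the fold limit, and went past it (-0.60) once fold changes were corrected for GC content. The near and the far upstream regions of FOXO3 therefore had fold changes of opposite sign.

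At FOXO1, 8 of the 9 distal regions lay in introns of the gene and 8 of the 9 log2 fold changes were positive, but most were small, and those at 17.6 and 30.8 kb turned negative after correction for the drift with signal. Only 2 regions were called. The region 86.9 kb into the gene (40579638 to 40579920) rose from an estimated 29.6 to 59.0 normalised reads (log2 fold change 1.00, SE 0.30, adjusted p = 0.0034 in the DESeq2 table). The region 14.3 kb into the gene had the larger fold change, 2.05 (95% interval 0.67 to 3.43, adjusted p = 0.011), on a mean signal of only 9.45, and was no longer called after the same correction (1.56, adjusted p = 0.063). Its estimated levels were 3.68 and 15.2.

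The strongest distal region of FOXO1, 52.9 kb into the gene, carried a MAF element and was not called, with levels of 140.0 and 167. The largest decrease in value, at 39.4 kb, was from 90.1 to 69.0 (-0.39 on the log2 scale, SE 0.22, adjusted p = 0.16), which did not pass the test. No FOXO1 region was called lower.

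**Figure D3:**
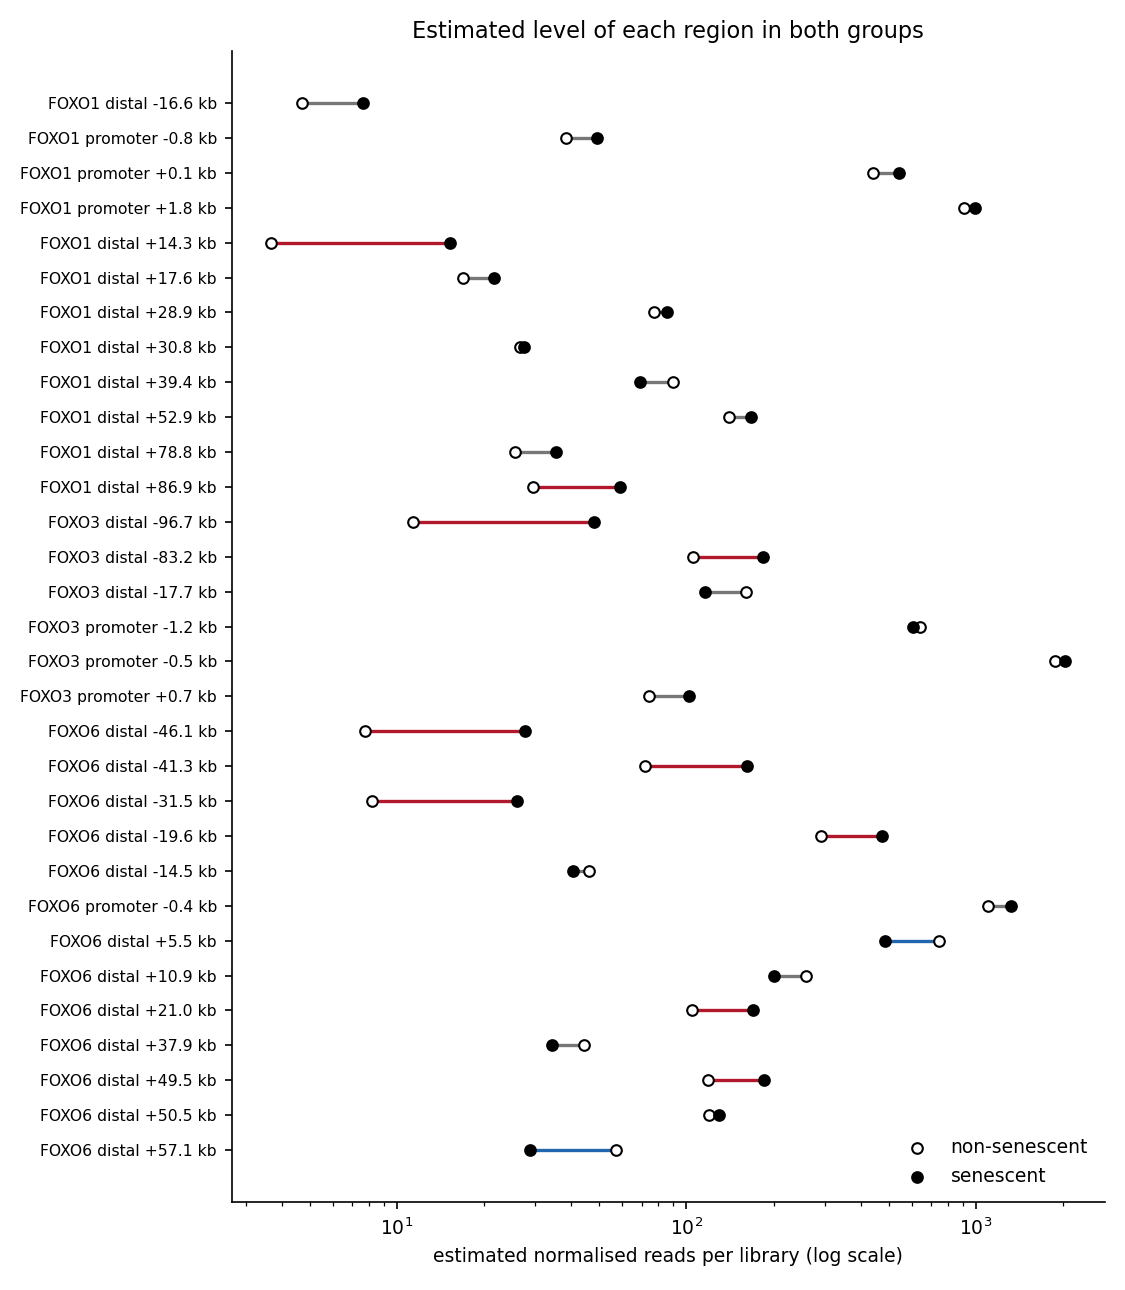
Estimated normalised reads per library (log scale, x axis) in non-senescent (open circles) and senescent cells (filled circles) for each of the 31 regions, named by gene, class and distance from the nearest start site. Lines are red where the region was called higher, blue where lower and grey where not called. Levels are worked out from mean signal and fold change and carry no error bars. The highest levels are those of promoter regions with short lines, while weak promoter regions have longer ones.

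The motifs were searched on both strands in 300 bases around the middle of each region, as exact matches. The forkhead element TGTTTAC, the core that FOXO and FOXA factors bind, was in 1 of the 24 distal windows, where 9.43% of all distal windows of the table held it, and the longer TTGTTTAC (3.02%) and the variant TGTTTGC (11.3%) were in none. The AP-1 element TGANTCA was in 5 of the 24 (11.1% of all distal windows), of which 2 were called higher and none lower. The homeodomain element TAATTA was in 2 (10.1%) and the MAF element TGCTGAC in 1 (7.16%), while the RFX element GTTGCC (12.6%) and the E2F elements TTTCGCGC and TTTGGCGC (0.175%) were in none. TTGTTTAC contains TGTTTAC, so these 2 overlap. None of the 7 promoter windows held any of the motifs. With so few windows these are descriptions, and a match is not evidence of binding.

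The rises were not confined to regions assigned to the FOXO genes. Among the other regions within 250 kb of the gene start, 6 of 17 were called higher and 1 lower around FOXO1, 3 of 10 higher and 1 lower around FOXO3, and 3 of 12 higher and none lower around FOXO6. Within 500 kb the counts were 10 higher and 3 lower of 41 around FOXO1, 9 and 6 of 32 around FOXO3, and 8 and 1 of 28 around FOXO6. Among the distal neighbours alone within 500 kb, 10 of 36 were higher around FOXO1, 9 of 25 around FOXO3 and 7 of 19 around FOXO6. Beside these stood 2 of 9, 2 of 3 and 6 of 12 of the distal regions assigned to the genes, and 18.1% of all distal regions. At FOXO1, 25 of the 36 neighbours, with 8 of the 10 higher ones, also had the FOXO1 start site as their nearest. Only the limit of 100 kb set these apart from the assigned regions. The share was thus lower in the assigned regions than in the neighbours at FOXO1 and higher at FOXO3 and FOXO6, and no test of these differences was made.

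**Figure D4:**
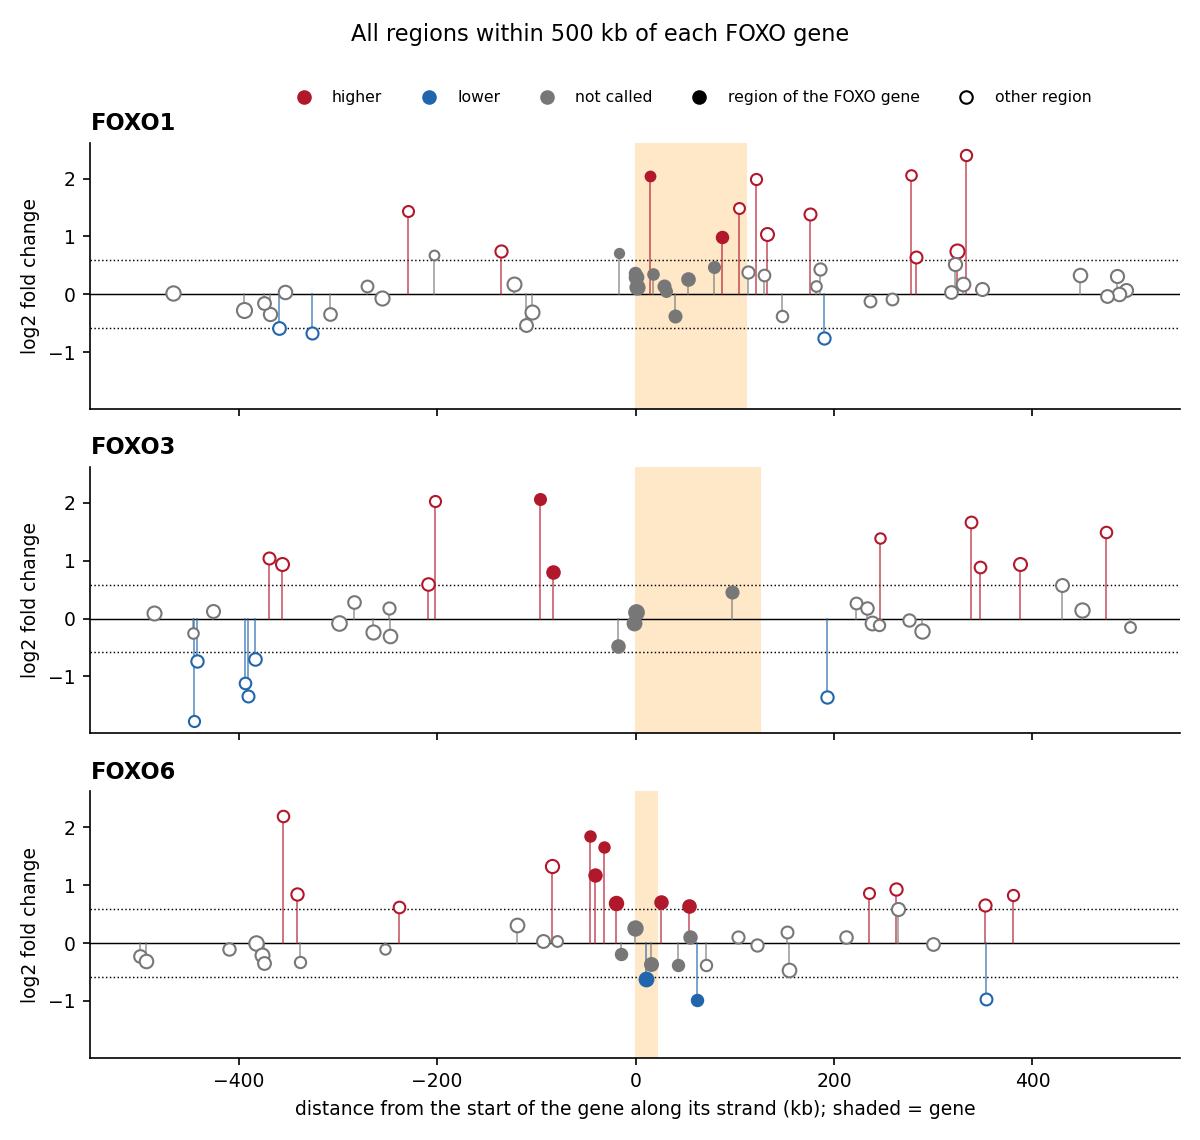
Log2 fold change (y axis) of every region within 500 kb of the start of each FOXO gene, by distance along the strand of the gene (kb, x axis), with the gene shaded. Filled circles are regions assigned to the gene and open circles other regions, circle size grows with mean signal, and higher regions (red) occur both among the assigned regions and among their neighbours.

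The genes that feed into FOXO factors, or that FOXO factors are known to act on, were then read in the same way. With 1 list of other forkhead factors beside them, this gave 104 genes in 7 lists. Each gene was represented by its promoter region of highest mean signal, which 98 genes had. Of these, 1 was called higher and 4 lower, where 1.39% of all 15493 genes with a promoter region were called higher and 7.02% lower, and the median log2 fold change was -0.05 against -0.14. Over all 174 promoter regions of these genes, 4 were higher and 13 lower, beside 3.56% and 9.04% of all promoter regions. Of their 518 distal regions, 100 (19.3%) were higher and 45 (8.69%) lower, with a median of 0.06. These shares lay near the background of all distal regions given above, and no test of the difference was made. The list of other forkhead factors held 118 of the 518, with 15 higher and 18 lower.

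Among 18 genes of insulin and growth factor input, 1 of 17 promoters was lower and none higher. It was that of SGK1, a kinase related to AKT that phosphorylates FOXO3, with a log2 fold change of -0.62 (with SE 0.08 and adjusted p = 4.5e-13 in the DESeq2 table). Of the distal regions of these genes, 24 of 134 (17.9%) were higher and 11 (8.21%) lower, beside 18.1% and 10.6% of all distal regions. IGF1R, the receptor for insulin-like growth factors, had 8 of 39 higher and 2 lower, and SGK1 itself 4 of 10 higher and 1 lower. PIK3R1, the regulatory subunit of PI3K, had 3 of 10 higher and 1 lower, and MAPKAP1, a subunit of the kinase complex mTORC2, 3 of 15 higher and 1 lower.

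Among 26 modifiers and partners of FOXO proteins, 1 promoter was lower, that of STK3 (-0.60, SE 0.06, adjusted p = 1.6e-21 in the DESeq2 table), a kinase that phosphorylates FOXO under oxidative stress. Of their distal regions, 21 of 83 (25.3%) were higher and 3 lower, with a median of 0.25, where all distal regions had 18.1% higher, 10.6% lower and a median of 0.08. This difference was not tested. CREBBP, which acetylates FOXO proteins, had 5 of 8 higher, MAPK8 (the stress kinase JNK1) 3 of 6, YWHAQ (a 14-3-3 protein) 3 of 7 and CTNNB1 (beta-catenin, a FOXO partner) 2 of 6 with 1 lower.

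Among the known FOXO targets, the called promoters were those of PLK1 and BBC3. In metabolism and insulin sensitivity, none of 10 promoters was called. Of the distal regions 13 of 61 (21.3%) were higher and 6 (9.84%) lower, beside 18.1% and 10.6% of all distal regions. PDK4, which limits the use of pyruvate, had 3 of 12 higher and 1 lower, PPARGC1A, a coactivator of mitochondrial genes, 1 of 11 higher and 3 lower, and G6PC1 (glucose-6-phosphatase) and FBXO32 (an E3 ligase of atrophy) each had 3 of 6 higher. In cell cycle arrest, the only called promoter of 11 was that of PLK1, a mitotic gene that FOXO factors are known to regulate. Its log2 fold change is given above (adjusted p = 4.3e-24 in the DESeq2 table). Of the distal regions of this list, 7 of 34 (20.6%) were higher and 4 (11.8%) lower, beside the same background. The CDK inhibitor CDKN1A had 2 of 2 distal regions higher and a promoter log2 ratio of -0.30 (SE 0.08, adjusted p = 0.0015), inside the fold limit. CCNG2 had 2 of 3, MXI1 2 of 4, and GADD45A, a DNA damage response gene, 1 of 17 higher and 3 lower.

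In oxidative stress, autophagy and survival, 1 of 19 promoters was higher. It was that of BBC3, which encodes the proapoptotic protein PUMA and is also a target of p53, which differed by 0.93 on the log2 scale (SE 0.16, adjusted p = 3.2e-08 in the DESeq2 table) at a mean signal of 187. Of the distal regions 12 of 63 (19.0%) were higher and 3 (4.76%) lower, beside 18.1% and 10.6% of all distal regions. SESN1, a stress-induced inhibitor of mTORC1, had 3 of 5 higher. The death ligands TNFSF10 and FASLG had 2 of 8 and 2 of 5 higher, and KLF4 had 2 of 4 lower. Among 9 factors tied to FOXO1 in beta cells no promoter was called. Their distal regions were higher in 10 of 50 and lower in 2, beside 18.1% and 10.6% of all distal regions. The median log2 fold change of these 50 was -0.13, against 0.08 over all distal regions, and the difference was not tested. MAFA, a factor of mature beta cells, had 4 of 9 higher and 1 lower, and NKX6-1 4 of 15 higher and 1 lower. PDX1 (of 9) and NKX2-2 (of 13) each had 1 higher.

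Of 10 other forkhead factors, FOXP2 had a lower promoter (-1.05, SE 0.07, adjusted p = 3.1e-46 in the DESeq2 table). Of their distal regions 15 of 118 (12.7%) were higher and 18 (15.3%) lower, with a median of -0.17. All distal regions had 18.1% higher, 10.6% lower and a median of 0.08, and this difference was not tested. FOXP1 had 8 of 31 higher and 5 lower, FOXP2 2 of 24 higher and 5 lower, and FOXA2, which shares the forkhead element, 1 of 19 higher and 4 lower. FOXO4, the remaining member of the FOXO class and on the X chromosome, had a promoter log2 ratio of 0.12 (SE 0.16, adjusted p = 0.58) at a mean signal of 166 and no distal region, and was chosen for mention for its family and not for its values.

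**Figure D5:**
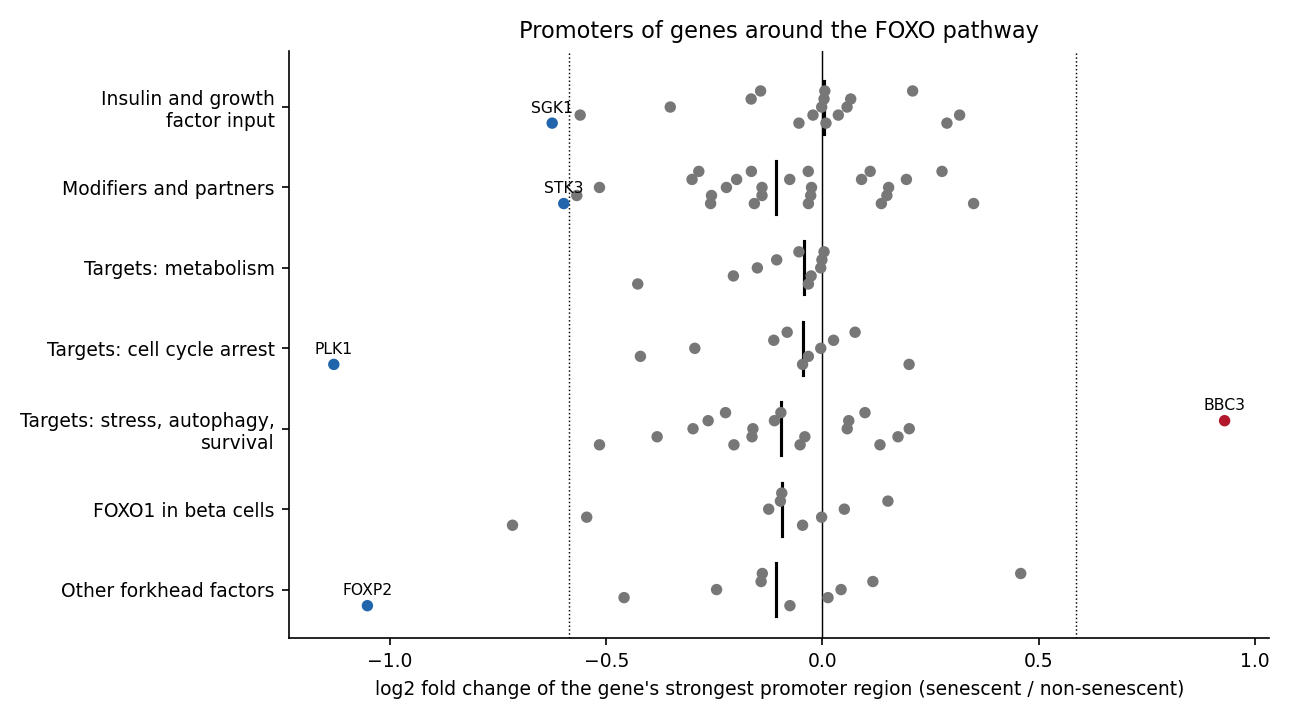
Log2 fold change (x axis) of the strongest promoter region of each gene in the 7 lists around FOXO factors (rows), 1 point a gene, with the list median as a vertical bar, called genes named and coloured, and dotted lines at the 1.5-fold limit. Most points lie inside the limit, with BBC3 beyond it on the right and PLK1, FOXP2, SGK1 and STK3 on the left.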

How the data were processed

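The groups, 3 senescent and 3 non-senescent libraries, were taken from the sample labels. According to the study's methods, the authors used Trim Galore for trimming and Bowtie2 for alignment to hg38, discarded reads of mitochondrial DNA and duplicates, corrected positions for the Tn5 offset, took the union of MACS2 peaks, counted reads in it and tested the groups with DESeq2, whose version is not given in the sources used here. The deposited mean signal is the average of counts over size factors. The log2 fold change and its SE in the deposited table are those of the authors' model. The deposited score is the Wald statistic, and it was checked that it equals the fold change over its SE. The deposited p-value and adjusted p-value were checked to follow from that score by the normal distribution on both sides and by the Benjamini-Hochberg method across the 108542 regions. Since the table holds only this comparison, its columns were used without a test of its own.

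Start sites came from GENCODE 44. Python 3.11.15, pandas 2.3.3, scipy 1.17.1 and pysam 0.24.0 were used. The calling rule, the running median, the assignment of regions to genes and the group levels were tested on simulated or made-up data. Every promoter region and, of the distal regions, each called one, the strongest and the largest rise and fall of each gene were named. Of each list, up to 4 genes with a called promoter and up to 3 with the most called distal regions, with ties, were named, except that the values of 1 gene and the sequences of 2 regions are not reported here. All genes matched the annotation by symbol. The genes and lists were chosen with earlier results of these data known, and lists may share genes or regions. Alternatives were other limits of p-value, fold change, signal, distance and start sites, and correction for trends on signal and GC content, each a running median of the 1000 neighbours on either side.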

Additional observations from a re-analysis of the deposited data

How the results depend on the processing

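No paired analysis was possible because single libraries have no values of their own, and for the same reason no library could be left out. The counts moved most with the rule of calling. The stricter Wald test, of a change beyond 1.5-fold, left 2 distal FOXO regions higher and 0 lower, and in the pathway lists 1 promoter region higher and 2 lower, and 25 distal regions higher and 14 lower. Without a fold change limit 2 FOXO promoter regions were higher and 4 distal ones lower, and in the lists 20 promoter regions were higher, 54 lower and 109 distal regions lower. Where only mean signals of 50 or more were kept, 5 of 12 distal FOXO regions were higher and 1 lower, with 2 promoter and 61 distal regions of the lists higher. Removing the trend on mean signal, alone or together with that on GC content, left 1 distal FOXO region lower and 9 higher. A distal limit of 50 kb left 1 lower, and 22 in the lists. With start sites of all genes, noncoding ones included, 1 FOXO promoter region of 8 was higher, and 3 of 7 distal ones higher and 0 lower, while the lists had 9 promoter regions higher, 51 distal regions higher and 16 lower. A promoter window of 0.5 kb left 1 promoter region of the lists higher. A distal limit of 500 kb, chosen after seeing the data, gave 18 of 49 higher.

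The other counts stayed within a ratio of 1.5. Under removal of the trend on mean signal, and of both trends, the log2 fold change changed sign in 3 FOXO regions that were not called, to -0.24 and -0.16 at 30.8 kb and -0.0052 and -0.084 at 17.6 kb in FOXO1, and to 0.058 and 0.13 at the upstream FOXO3 promoter region, where removal of the GC trend gave 0.071. Centring on the median changed no call or sign of the 31 regions. Weak regions limit the rest, since at a mean signal under 100 the median SE of distal regions was 0.32, against 0.13 above it.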

Other observations

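On the side of FOXO1 where its gene ends, the next protein-coding start site, that of COG6, is 1011 kb away, so that 25 more regions had the FOXO1 start site as their nearest at 104 to 494 kb and fell outside the limit of 100 kb. Of these, 8 were called higher and 1 lower. The first, 104 kb from the start site, still lay inside FOXO1 at the start of a noncoding transcript of the gene, and had a log2 ratio of 1.49 (SE 0.38, adjusted p = 0.00048 in the authors' deposited DESeq2 table) at a mean signal of 27.4. At 121 kb, just past the gene, the log2 ratio was 2.00 (SE 0.39) at a mean signal of 34.1, and at 132 kb it was 1.04 (SE 0.13, adjusted p = 2.7e-14) at 239. The strongest, at 324 kb, had a mean signal of 906 and a log2 ratio of 0.75 (SE 0.08, adjusted p = 3.8e-19), above the signal of any distal region within the limit. These regions were singled out after their values were seen. FOXO3 and FOXO6 had no region beyond the limit.

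RefSeq lists a further FOXO3 promoter within the long stretch of the gene that held no accessible region (chr6:108588523-108588772). It had a GC content of 47.6% and contained an AP-1 element, unlike the CpG-rich promoters of the main start sites.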
